A study of Mus musculus with 4 samples.

Results

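The 9 genes Mbp, Mobp, Mog, Mag, Cnp, Mal, Cldn11, Opalin and Ermn encode proteins of the myelin that oligodendrocytes make in the central nervous system. All probe sets that the platform annotation assigns to 1 of these 9 symbols alone were taken, 25 of 45037, and none was dropped for a dimmer signal. Mbp had 8, Mobp 5, Cnp 3, and Mal, Opalin and Ermn 2 each, while Mog, Mag and Cldn11 had 1 each. The arrays measured brain RNA of male mice aged 8 to 9 weeks, from 2 wildtype (+/+) and 2 BCAS1 KO (-/-) animals, 1 mouse per array. All 4 mice had the C57BL/6 background and came from crosses of animals carrying 1 disrupted copy of Bcas1. The labels name the tissue as brain and, in the description, as cerebrum. The labels do not say how or where the Bcas1 allele was disrupted. Values are log2 levels, so that a difference of 1 unit is a doubling, and they are called wild type 1 and 2 and knockout 1 and 2 after the labels.

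Myelin is a stack of oligodendrocyte membrane wrapped around an axon. Basic proteins such as those of Mbp and Mobp bring the cytoplasmic faces of the membrane together, Cnp, Opalin and Ermn belong mostly to the channels and loops that keep cytoplasm, Mal and Cldn11 sit in the membrane as transport and junction proteins, and Mag and Mog lie on the inner and outer surfaces of the sheath. The genes are switched on together as precursors mature, under transcription factors that include Sox10 and Myrf. Bcas1 itself encodes a protein of myelinating oligodendrocytes, which is why the myelin genes are a question in this knockout.

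The arrays had medians of 6.49 to 6.51 over all probe sets, and levels correlated at 0.996 to 0.998 between arrays, across probe sets that are not independent replicates. Knockout 2 stood apart in part of a list of nasal genes. The summed level of 8 measured nasal mucosa genes, a list that includes genes picked after their values were seen, was 44.25 and 45.67 in wild type, 44.07 in knockout 1 and 61.13 in knockout 2. Obp1a, Bpifa1, Obp2a, Bpifb3 and Cyp2g1 carried the rise, at 6.46 to 8.92 in knockout 2 and at most 6.26 on the other arrays. Reg3g, Omp and Gnal differed little, at 4.62, 6.56 and 11.10 in knockout 2 and at most 4.32, 6.42 and 11.04 on the other arrays. Brain markers were bright on all arrays, with a mean level of 12.34 to 12.40 for 10 neuronal genes and of 11.65 to 11.74 for 8 astrocyte genes. For Schwann cells, which make peripheral myelin, 6 genes were read. Dhh and Pmp2 lay under the median level of all probe sets, and Ncmap, Cdh19, Egr2 and Drp2 lay above it, at means of 6.60 to 8.83. The summed level of the 6 was 42.56 and 42.09 in wild type, 42.57 in knockout 1 and 42.50 in knockout 2, and their part in the myelin values was not tested. The brightest probe set of Bcas1, the targeted gene, read 12.17 and 12.21 in the wild types against 11.05 and 10.75 in the knockouts, while its 2 dim probe sets read higher in the knockout. Because knockout 2 stood apart, the differences of each member gene are also given without it. In bulk brain RNA, fewer oligodendrocytes and less RNA per oligodendrocyte cannot be told apart.

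None of the 25 probe sets of the 9 myelin genes was called different between the genotypes in the test across all probe sets. The brightest probe set of Bcas1, the targeted gene, was not called either, at a difference of -1.29 (adjusted p of 0.742 in limma). The test can thus miss a large difference. In limma, with Benjamini-Hochberg adjustment over 45037 probe sets, 0 of 25 passed the threshold of 0.05, and 0 of 25 had an unadjusted p under 0.05. Over all probe sets 0.00444% passed the adjusted threshold, namely Erdr1 and 1 unnamed probe set, both chosen after their values were seen, and 3.42% had an unadjusted p under 0.05. The knockout minus wild-type differences of the members ran from -0.095 to 0.31 with a median of 0.05, against a median of 0 over all probe sets. Of the 25, 20 were above 0 and 5 below, against 48.1% above 0 over all probe sets. Probe sets of 1 gene are not independent readings. By the brightest probe set of each gene, 8 of 9 were above 0, against 51.7% of all genes. Both knockout arrays lay above both wild-type arrays in 4 of the 25 and below them in 0, where the shares over all probe sets were 13.9% and 13.2%. The smallest unadjusted p in limma was 0.16, for the dim Opalin probe set.

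A failed test does not show equality, so the intervals are given too. The 95% interval of the difference, from the moderated variance of limma and for each probe set alone, stayed within 1.5-fold in either direction in 24 of 25 probe sets. The exception was the dim Opalin probe set, whose interval ran from -0.18 to 0.79. The median SE of a member was 0.090. The median SD between mice of a group, pooled over both groups, was 0.090 for the members and 0.090 over all probe sets. The precision is limited by the number of arrays.

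**Figure D1:**
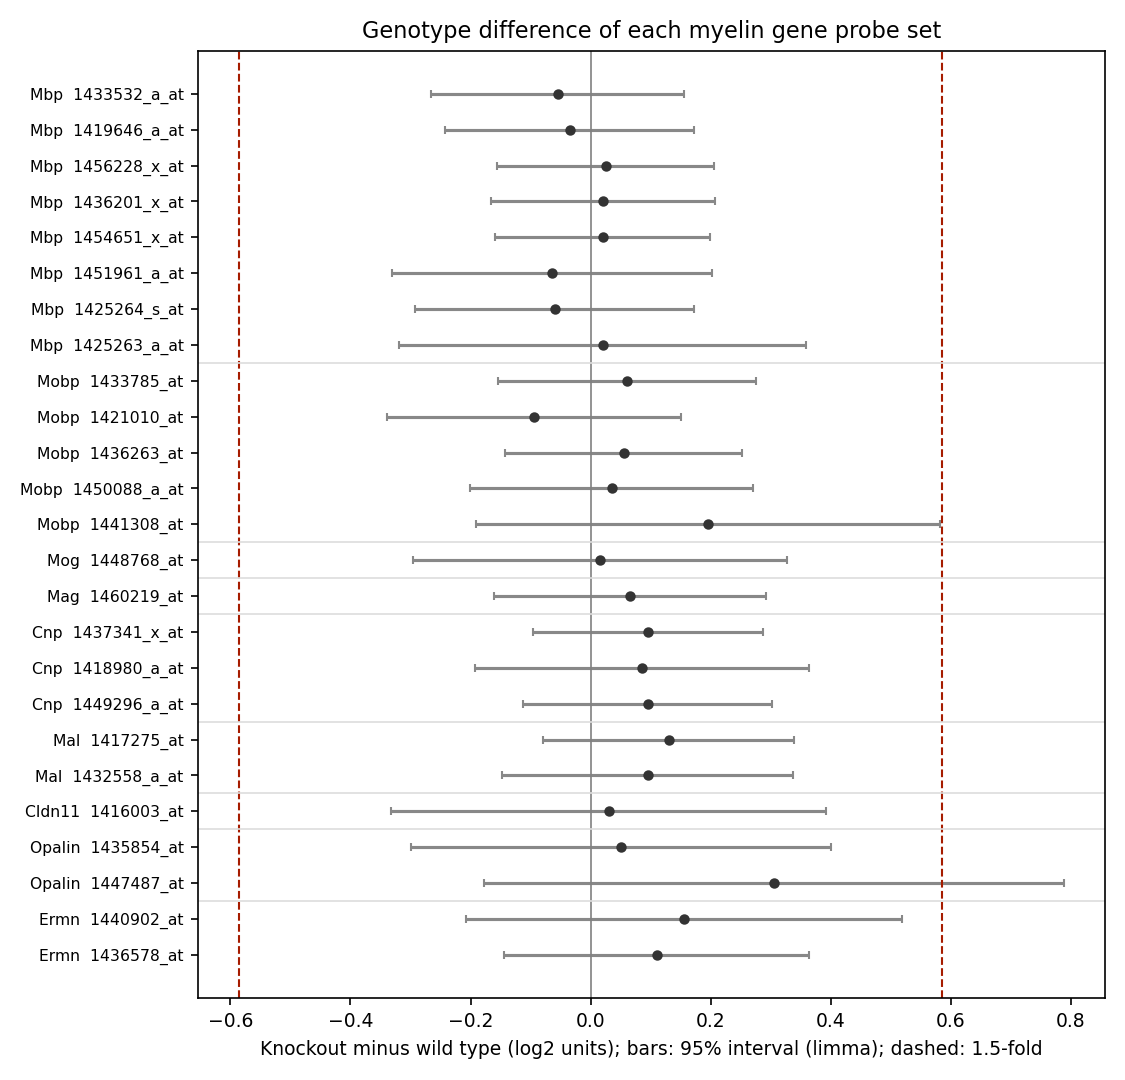
Knockout minus wild-type difference in log2 units on the horizontal axis for each of the 25 probe sets on the vertical axis, with bars for the 95% interval from limma (n = 2 mice per group) and dashed lines at 1.5-fold. Every interval crosses 0, and the interval of the dim Opalin probe set 1447487_at is the one that passes a dashed line.

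The members' median stayed above 0 but changed with single arrays. Without knockout 1, 14 of 25 differences were above 0 and the median was 0.010. Over all probe sets 53.6% were then above 0 with a median of 0.015, so the members' median was not above it. Without knockout 2 these values were 23 of 25 and 0.075, against 44.8% and -0.015 over all probe sets. Without wild type 1 they were 17 and 0.025, against 47.6% and -0.005. Without wild type 2 they were 18 and 0.035, against 49.8% and 0. In these 4 reduced comparisons the lone mouse of a group is assumed to vary like the others, so the sizes of the differences are described here.

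Mbp, which encodes myelin basic protein, gave very strong signals on these arrays, and its 8 probe sets fell into a bright and a dimmer group. The brightest probe set, 1433532_a_at, ranked 4 of 45037 and read 14.49 and 14.47 in the wild types against 14.49 and 14.36 in the knockouts. Knockout 1 equalled wild type 1, and knockout 2 was the lowest. The difference was -0.055 (SE 0.081, 95% interval -0.27 to 0.16, adjusted p of 1 in limma), or a change of -3.74% with an interval from -16.8% to 11.4%.

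The other 4 bright Mbp probe sets also differed by little between genotypes. Probe set 1419646_a_at read 14.18 and 14.21 in the wild types against 14.22 and 14.10 in the knockouts, with a difference of -0.035 (SE 0.079). Probe set 1456228_x_at read 14.09 and 14.11 against 14.14 and 14.11, and 1436201_x_at read 14.03 and 14.01 against 14.07 and 14.01. In 1454651_x_at both wild-type arrays read 13.74 and the knockout arrays 13.77 and 13.75, so the genotypes did not overlap, by a difference of 0.020 (SE 0.069). The last 3 of these sets carry the suffix _x_at, which Affymetrix gives to sets with probes that may also bind other sequences, and their knockout 1 value was the highest of the 4 arrays each time. The highest value of any probe set on any array was 14.79, so these sets lie near the top of the scale. Whether their signals were saturated, which would make differences smaller, was not tested.

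The 3 dimmer Mbp probe sets did not follow one pattern. Probe set 1451961_a_at read 11.07 and 11.17 in the wild types against 11.16 and 10.95 in the knockouts, a difference of -0.065 (SE 0.10). Probe set 1425264_s_at read 9.71 and 9.80 against 9.62 and 9.77, a difference of -0.060 (SE 0.089), and here knockout 1 was the lowest array. Probe set 1425263_a_at read 8.03 and 7.78 in the wild types against 8.04 and 7.81 in the knockouts, so the spread within each group was larger than the difference of 0.020 (SE 0.13). The Mbp locus also makes the longer golli transcripts, and the gene table lists 17 RefSeq transcripts. Which of them each probe set reads was not analysed here. Without knockout 2 the 8 Mbp differences ran from -0.14 to 0.14, with 7 above 0, and that of the brightest set was 0.010.

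**Figure D2:**
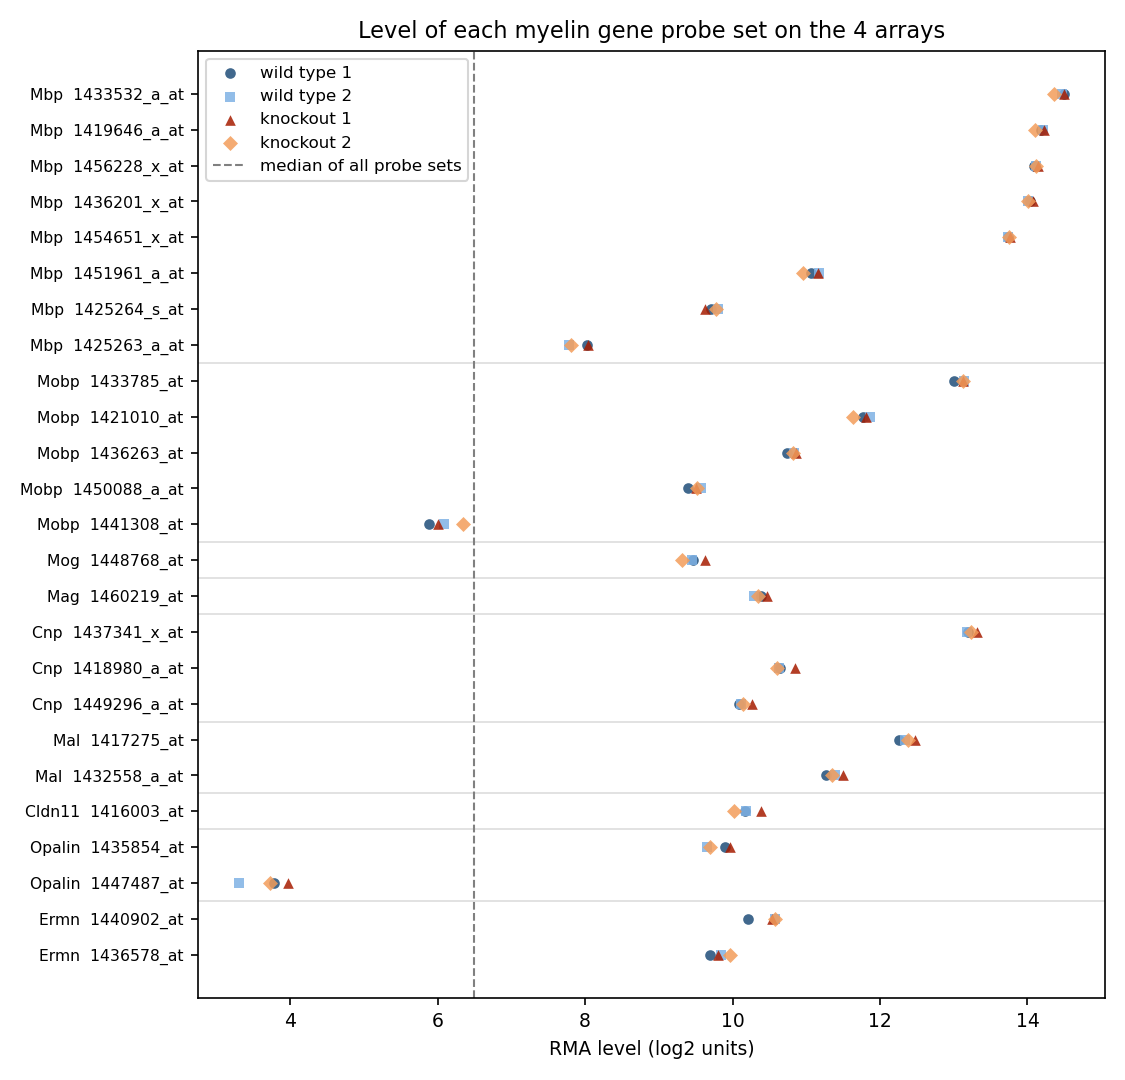
RMA level in log2 units on the horizontal axis for each of the 25 probe sets on the vertical axis, 1 point per array, with a dashed line at the median level of all probe sets (6.49). The 4 arrays of a probe set lie close together compared with the distance between probe sets of a gene, as in Mbp, where probe set means run from 7.92 to 14.45.

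Mobp, which encodes the myelin-associated oligodendrocytic basic protein, gave differences on both sides of 0. Its brightest probe set, 1433785_at, read 13.00 and 13.14 in wild type and 13.13 on both knockout arrays. Only wild type 1 stood lower, and the difference was 0.060 (SE 0.082, adjusted p of 1 in limma). Probe set 1421010_at read 11.77 and 11.87 in the wild types against 11.81 and 11.64 in the knockouts, and its difference of -0.095 (SE 0.094) was the lowest of all 25. Probe set 1436263_at read 10.74 and 10.83 against 10.86 and 10.82, and 1450088_a_at read 9.39 and 9.57 against 9.51 and 9.52. In both, wild type 1 was again the lowest array. The dim probe set 1441308_at, below the median level of all probe sets, read 5.88 and 6.08 in the wild types against 6.00 and 6.35 in the knockouts. Its difference was 0.20 (SE 0.15), and knockout 2, the array with the high summed level of nasal genes, was its highest. It was 0.020 without knockout 2 and 0.37 without knockout 1. The part of that array's nasal signal in this value was not tested. Without knockout 2 the 5 Mobp differences ran from -0.010, for 1421010_at, to 0.075, for 1436263_at, and without knockout 1 that of 1421010_at was -0.18.

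Cnp, which encodes the phosphodiesterase of the cytoplasmic channels of myelin, gave nearly the same difference in all 3 probe sets. Probe set 1437341_x_at read 13.19 and 13.18 in the wild types against 13.32 and 13.24 in the knockouts, so the genotypes did not overlap, and the difference was 0.095 (SE 0.073, 95% interval -0.096 to 0.29, adjusted p of 1 in limma). Probe set 1449296_a_at read 10.09 and 10.12 against 10.26 and 10.14, also without overlap, with a difference of 0.095 (SE 0.079). In 1418980_a_at, at 10.65 and 10.63 against 10.85 and 10.60, knockout 2 was the lowest array, and the difference was 0.085 (SE 0.11). In each of the 3 the knockout 1 array was the highest. Without knockout 2 the 3 differences were 0.14, 0.16 and 0.21, and without knockout 1 they were 0.055, 0.035 and -0.040, in the order 1437341_x_at, 1449296_a_at and 1418980_a_at.

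Mal, which encodes a membrane proteolipid of raft-like domains that takes part in sorting proteins to myelin, was likewise highest in knockout 1 in both of its probe sets. Its brighter probe set 1417275_at read 12.26 and 12.34 in the wild types against 12.48 and 12.38 in the knockouts. The genotypes did not overlap, and the difference was 0.13 (SE 0.080, 95% interval -0.079 to 0.34, adjusted p of 1 in limma). Its other probe set, 1432558_a_at, read 11.27 and 11.39 against 11.50 and 11.35, with overlap and a difference of 0.095 (SE 0.093). Without knockout 2 the 2 Mal differences were 0.18 and 0.17, and without knockout 1 they were 0.080 and 0.020.

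Cnp and Mal were the 2 of 9 genes whose brightest probe set did not overlap between genotypes, both higher in the knockout. Over all 18193 genes 15.5% lay higher and 12.8% lower without overlap, so this does not set the 2 genes apart. Their promoters are shown as examples. They were chosen on these values, and the sequences are from RefSeq at GRCm38.p6, 250 bases before to 50 bases after the annotated start, on the strand of the gene. Capitals mark letters that match a MYRF core (CTGGCAC or CTGGTAC) or a SOX10 core (ACAAAG or ACAATG), searched on both strands with no overlap between the motifs found here. The Cnp window is chr11:100574689-100574988 on the plus strand and the Mal window is chr2:127656646-127656945 on the minus strand.
Cnp: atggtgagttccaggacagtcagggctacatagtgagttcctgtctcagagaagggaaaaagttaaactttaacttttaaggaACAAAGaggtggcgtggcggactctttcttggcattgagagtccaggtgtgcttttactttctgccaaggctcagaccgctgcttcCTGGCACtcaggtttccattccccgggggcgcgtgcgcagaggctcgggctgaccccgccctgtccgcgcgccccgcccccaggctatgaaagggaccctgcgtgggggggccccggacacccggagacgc
Mal: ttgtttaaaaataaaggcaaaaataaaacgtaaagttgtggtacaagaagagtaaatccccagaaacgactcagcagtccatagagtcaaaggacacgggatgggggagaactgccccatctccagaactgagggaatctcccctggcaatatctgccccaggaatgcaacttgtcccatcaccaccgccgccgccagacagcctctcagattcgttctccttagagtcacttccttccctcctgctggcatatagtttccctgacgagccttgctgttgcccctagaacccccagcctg
The Cnp window held 1 match of each core, and the Mal window held 0 of either in these letters. Promoters of 8 members, all but Mbp, were used here, with 10 windows in all. Those of Mog, Mag, Cnp and Opalin held a MYRF core, which 7.1% of 32851 RefSeq promoter windows of this length held. Those of Mobp, Mag, Cnp, Opalin and Ermn held a SOX10 core, which 28.6% held. A member was counted if any of its windows held a match, while the RefSeq shares are per window, so the 2 are not like for like. Mag had more than 1 window, and the one starting at 30914272 held neither core. A match describes letters, and binding was not measured. The Mobp window held 6 SOX10 matches and that of Opalin 2. Whether matches go with the genotype differences was not tested.

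Mog, Mag and Cldn11 were each read by 1 probe set, and in all of them knockout 1 was the highest array. Mog, an immunoglobulin-like protein of the outer sheath surface, read 9.46 and 9.45 in the wild types against 9.62 and 9.32 in the knockouts. The 2 knockout mice lay on either side of the wild types, and the difference was 0.015 (SE 0.12). Mag, an adhesion molecule of the innermost membrane facing the axon, read 10.39 and 10.29 against 10.47 and 10.34, with a difference of 0.065 (SE 0.087). Cldn11, the claudin of the tight junctions between the layers of the sheath, read 10.17 and 10.18 against 10.39 and 10.02. Its wild-type SD was 0.0071 and its knockout SD 0.26, and the difference of 0.030 (SE 0.14) was far smaller than the gap between the knockout mice. All 3 had an adjusted p of 1 in limma. Without knockout 2 the differences of Mog, Mag and Cldn11 were 0.17, 0.13 and 0.22, and without knockout 1 they were -0.14, 0 and -0.16.

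Opalin and Ermn are genes of late oligodendrocyte maturation. Their SD between mice, pooled over both groups, was above the members' median of 0.090 in all 4 of their probe sets. This was not particular to them, with knockout SDs of 0.26 for Cldn11 and 0.21 for Mog. In Ermn 1440902_at the SD was 0.26 in wild type and 0.028 in the knockout. Opalin, a transmembrane protein of the paranodal loops, read 9.90 and 9.66 in the wild types against 9.96 and 9.70 in the knockouts at its bright probe set 1435854_at. The mice numbered 1 were higher than the mice numbered 2 in both genotypes, and the genotype difference was 0.050 (SE 0.13). Its dim probe set 1447487_at, at the 9.47 percentile of all probe sets, read 3.78 and 3.31 against 3.97 and 3.73. It gave the largest difference of the 25, 0.31 (SE 0.18, adjusted p of 1 in limma), at a level where no detection call was used here. This value was 0.07 without wild type 2, 0.54 without wild type 1, 0.19 without knockout 1 and 0.43 without knockout 2. The difference of the bright set was 0.18 without knockout 2 and -0.080 without knockout 1.

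Ermn, which encodes ermin, an actin-binding protein of the oligodendrocyte cytoskeleton, was lowest in wild type 1 in both of its probe sets. Probe set 1440902_at read 10.21 and 10.58 in the wild types against 10.53 and 10.57 in the knockouts, and 1436578_at read 9.70 and 9.84 against 9.80 and 9.96. The differences were 0.16 (SE 0.14) and 0.11 (SE 0.097). Wild type 2 lay above knockout 1 in both, so the genotypes overlapped. Without wild type 1 the differences were -0.030 and 0.040, and without knockout 2 they were 0.14 and 0.030.

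**Figure D3:**
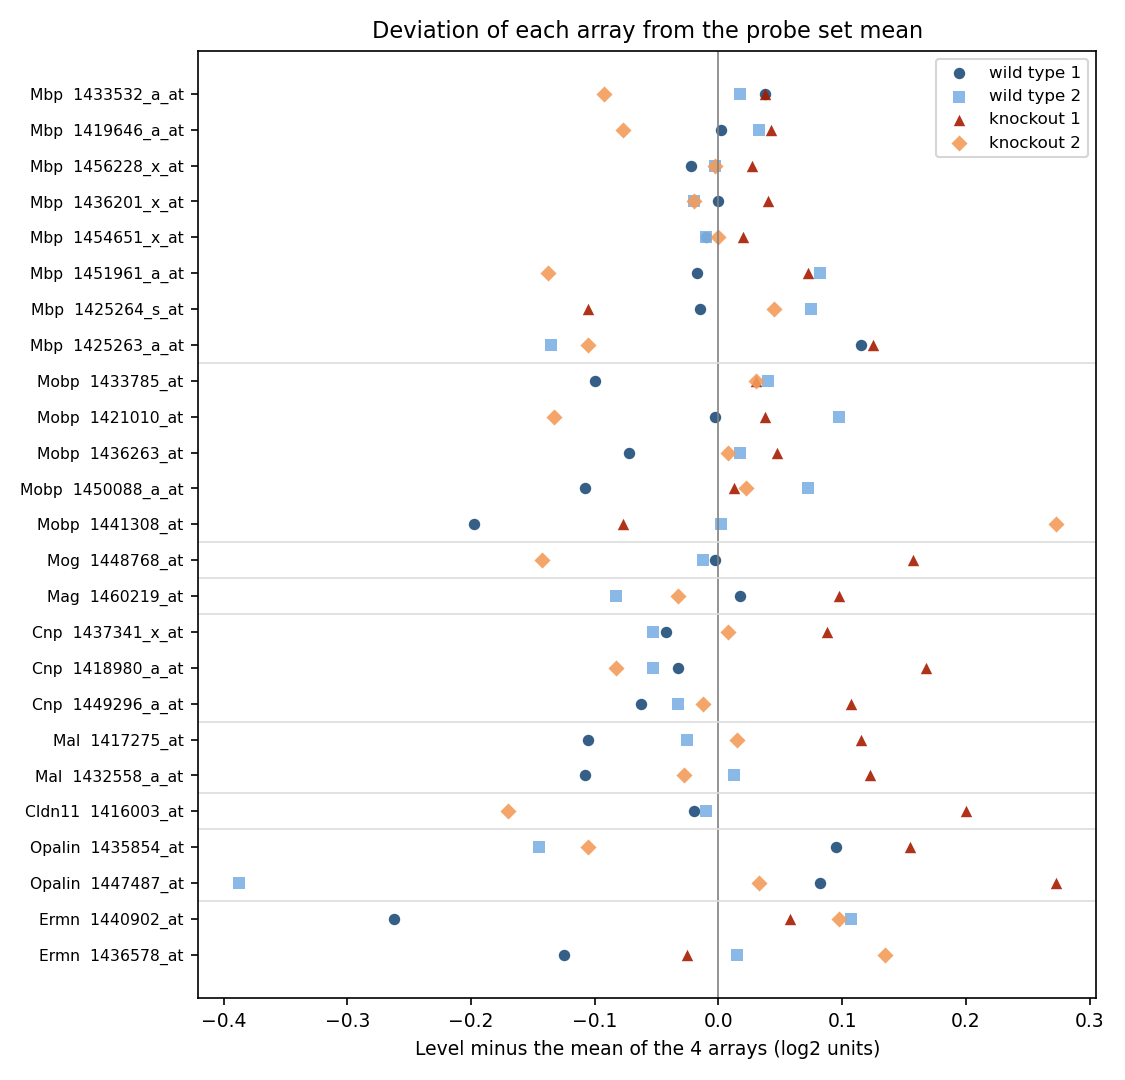
Level of each array minus the mean of the 4 arrays in log2 units on the horizontal axis, for the 25 probe sets on the vertical axis. Knockout 1 (triangles) is the highest array in 16 of the 25 probe sets, and wild type 1 (circles) is the lowest in 10, among them both Ermn probe sets.

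Across the members, knockout 1 was the array that most often read highest. It was strictly the highest of the 4 arrays in 16 of 25 probe sets, against 21.1% of all probe sets. Wild type 2 was the highest in 6, knockout 2 in 2 and wild type 1 in 0, with 1 tie. By the brightest probe set of each gene, knockout 1 was the highest in 6 of 9 genes, against 19% of all genes. Taking each gene by its brightest probe set, the mean level of the 9 genes was 11.45 and 11.48 in wild type, 11.60 in knockout 1 and 11.45 in knockout 2, so that knockout 2 lay with the wild types. The excess of knockout 1 was carried by Cldn11, Mog, Opalin, Mal, Mag and Cnp, which deviated from their own 4-array means by 0.088 to 0.20 on this array, while Mbp, Mobp and Ermn deviated by 0.030 to 0.058.

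Other lists moved on the same array. The mean of 8 astrocyte genes was also highest in knockout 1, by 0.061 above its 4-array mean. Knockout 1 was strictly the highest array in 5 of the 8, and the lowest for Aldh1l1, at 9.81. Gfap was higher in both knockouts, at 9.01 and 8.97 against 8.64 and 8.77 in wild type. The means of 8 microglial and 7 endothelial genes were lowest in knockout 1, at -0.056 and -0.076. The mean of 8 oligodendrocyte precursor genes ranged from -0.010 to 0.011 over the 4 arrays, and that of 10 neuronal genes from -0.026 to 0.028. The part of these cell types in the myelin values was not tested.

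**Figure D4:**
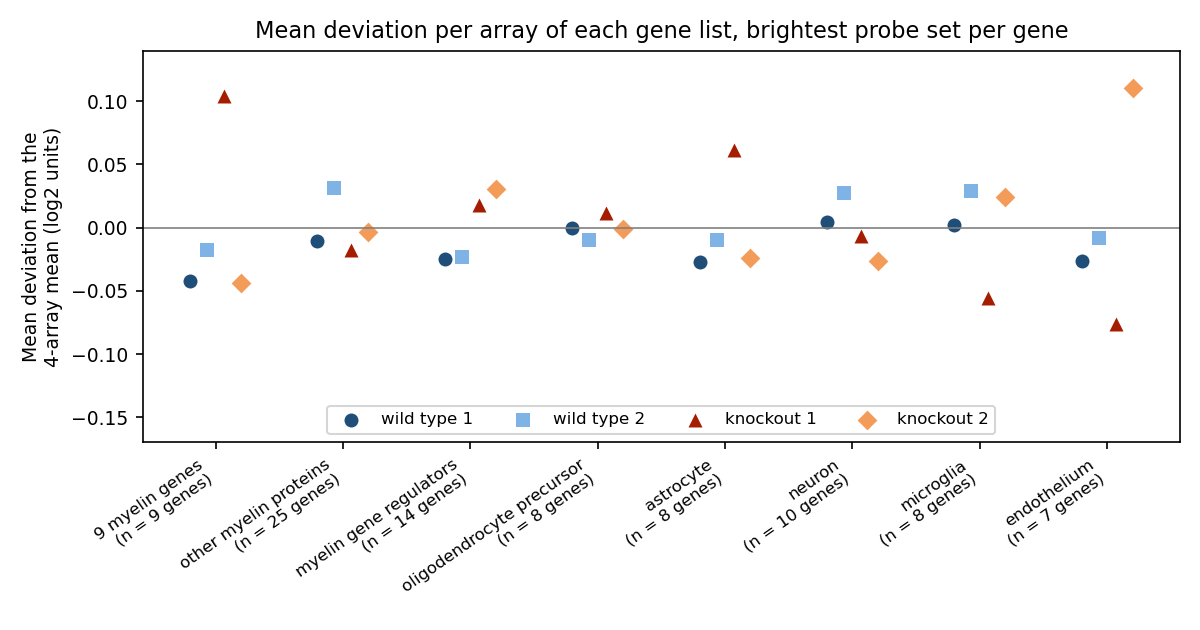
Mean deviation from the 4-array mean in log2 units on the vertical axis, for each gene list on the horizontal axis, with 1 point per array and each gene taken by its brightest probe set. The 9 myelin genes sit at 0.10 in knockout 1 and between -0.044 and -0.018 on the other 3 arrays. The list of other myelin proteins includes Bcas1, the targeted gene, which lowers its knockout points.

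Probe sets of a gene differed in level far more than arrays did. The mean level differed between the brightest and the dimmest probe set by 6.54 for Mbp, 7.02 for Mobp, 6.11 for Opalin, 3.08 for Cnp, 0.99 for Mal and 0.65 for Ermn. Among genes with the same number of probe sets the median gap was 5.70 for 33 genes with 8, 4.41 for 463 genes with 5, 2.87 for 2366 genes with 3 and 1.49 for 4695 genes with 2. The Opalin gap exceeded that of 97.7% of genes with 2 probe sets and the Mobp gap that of 89.6% of genes with 5, while the gaps of Mal and Ermn exceeded 35.3% and 25.1%. Such gaps describe how probe sets respond, and are not amounts of RNA. With probe sets under the median level left out, the Mobp gap was 3.60 and Opalin kept 1 probe set.

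The genotype differences of a gene's probe sets lay close together. They spanned 0.090 over the 8 Mbp sets, where the median span of genes with 8 sets was 0.27, and 0.010 over the 3 Cnp sets, where it was 0.14. Mal and Ermn spanned 0.035 and 0.045, against a median of 0.085 for genes with 2 sets. Mobp and Opalin, the 2 members with a probe set under the median level, spanned more than the median gene of their size, 0.29 against 0.21 and 0.26 against 0.085. Mbp and Mobp were the members with differences on both sides of 0.

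Whether probe sets of a gene gave different genotype differences was tested directly. For each of 16 further probe sets, the level minus that of the brightest set of its gene was taken on each array and compared between genotypes, together with all 16752 such contrasts on the arrays. In limma 0 of the 16 passed after Benjamini-Hochberg adjustment and 0 had an unadjusted p under 0.05, where 0.00597% of all contrasts passed (1, of Erdr1, chosen after its value was seen) and 3.27% had an unadjusted p under 0.05. The contrast of the dim with the bright Opalin set was -6.12 and -6.35 in the wild types against -5.99 and -5.97 in the knockouts, so the genotypes did not overlap. It differed by 0.26 (SE 0.12, 95% interval -0.034 to 0.54, adjusted p of 0.996 in limma), and by 0.14 without wild type 2 and 0.37 without wild type 1. The dim set was not shown to be above background, which limits this contrast. The contrasts of the 3 Mbp sets with the suffix _x_at with the brightest Mbp set also lay without overlap, higher in the knockout by 0.075, 0.075 and 0.080 (SE 0.10 each), and share that brightest set. They were 0.020 to 0.040 without knockout 2 and 0.11 to 0.13 without knockout 1. For Mobp, 1421010_at minus the brightest set was -1.23 and -1.27 in the wild types against -1.32 and -1.49 in the knockouts, a difference of -0.16 (SE 0.11), which was -0.070 without knockout 2 and -0.24 without knockout 1. Contrasts without overlap thus numbered 4 higher, the dim Opalin set among them, and 1 lower of 16, where the shares over all contrasts were 12.9% and 14%. The intervals of the 16 contrasts ran no lower than -0.42 and no higher than 0.54. Without knockout 2 the 16 contrasts ran from -0.15 to 0.25. Without knockout 1, 1 of 16 had an unadjusted p under 0.05, Mobp 1441308_at at 0.31, where 7.17% of all contrasts had.

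Other genes of myelin were read from a list of 30 further genes of myelin and its oligodendrocytes, of which 25 had a probe set named for them alone, Bcas1 included. By brightest probe set, 0 of 25 passed over all probe sets in limma, 19 differences were above 0 and 6 below, and 1, Bcas1, had an unadjusted p under 0.05. Over the brightest probe sets of all 18193 genes 51.7% were above 0 and 2.75% had such a p. The median of the 25 was 0.030, and 5 lay higher and 2 lower without overlap, where the shares over all 18193 genes were 15.5% and 12.8%. After Bcas1, at -1.29 (SE 0.12, adjusted p of 0.742 in limma), the largest differences in size were those of Gjb1, a connexin of glial gap junctions, at 0.14 (SE 0.091) and Anln, a scaffold of septin filaments, at 0.11 (SE 0.10). The glial connexin gene Gjc3, at -0.10 (SE 0.088), and Omg, a glycoprotein of oligodendrocytes and neurons, at 0.10 (SE 0.077), tied in size after them. Without knockout 2 these were -1.14 for Bcas1, 0.12 for Gjb1, 0.010 for Anln, -0.035 for Gjc3 and 0.050 for Omg, and 14 of the 25 were above 0 with a median of 0.010. Knockout 1 was the highest array in 4 of these 25 genes, against 19% of all genes. Their mean level was 9.78 in knockout 1 against 9.79 and 9.83 in wild type and 9.80 in knockout 2. This mean includes Bcas1, at 12.17 and 12.21 in wild type, 11.05 in knockout 1 and 10.75 in knockout 2, which lowers both knockout means. The mean of the list without Bcas1 was not taken, so these means do not describe the other genes alone.

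Of 15 transcription factors and cofactors that regulate myelin genes, 14 were measured, and 0 passed over all probe sets in limma. The differences were above 0 in 9 and below in 5, with a median of 0.025. Without overlap 5 lay higher and 1 lower, beside the same 15.5% and 12.8% of all genes. Myrf, which drives the myelin genes in maturing oligodendrocytes, read 9.30 and 9.43 in the wild types against 9.63 and 9.66 in the knockouts, a difference of 0.28 (SE 0.081, unadjusted p of 0.020 and adjusted p of 1 in limma). It was the 1 regulator with an unadjusted p under 0.05, and without knockout 2 its difference was 0.27 with an unadjusted p of 0.088 in limma. Olig1, Olig2 and Sox10, which specify the lineage, were at differences of 0.16 (SE 0.078), 0.14 (SE 0.13) and 0.13 (SE 0.080), and at 0.13, 0.20 and 0.13 without knockout 2. Without wild type 1 the Olig2 difference was -0.025. Without knockout 2, 8 of the 14 regulators were above 0, with a median of 0.050. The regulators had mean levels of 9.08 and 9.09 in the wild types against 9.13 and 9.14 in the knockouts, so the genotypes did not overlap in this mean, which was not tested.

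The likeness of other genes to the 9 was measured over the 4 arrays. The distance was the root mean square gap between a gene's deviations and the mean deviations of the 9 genes, among 5265 genes above the median level that varied at least as much. Tarsl2 was closest at 0.0062, followed by Tomm70a at 0.0066, Tm9sf2 at 0.0070, Svip at 0.0070 and Nap1l3 at 0.0090, while the median distance was 0.12. Each read highest in knockout 1, which follows from choosing genes close to this pattern. Tomm70a, for example, read 11.64 and 11.66 in wild type, 11.80 in knockout 1 and 11.64 in knockout 2. The distances of the members to their own mean pattern were larger, 0.032 for Cnp to 0.15 for Ermn. Over the 3 arrays without knockout 2, these 5 genes ranked 25 to 60 of the 5265 in closeness, at 0.0067 to 0.010, where the median was 0.10. Those 3 arrays were also used in choosing the 5 genes. With 4 arrays such a likeness is a description and was not tested.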

How the data were processed

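The authors deposited 1 log2 level per probe set and array, made with RMA according to the processing notes of the submitters, which name no software or settings. Per the labels' protocols, biotin-labelled RNA was made from 100 ng total RNA with a kit that primes at the 3' end. RMA corrects background, normalizes between arrays and summarises probes, and it compresses differences of dim probe sets. Of 45101 rows, 64 Affymetrix controls were left out. Of the others, 34945 named 1 gene, 932 several and 9160 none. All 9 symbols were the same in RefSeq GRCm38.p6, looked up by Entrez number.

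The genotypes were compared in limma 3.58.1 (R 4.3.3), two-sided, with lmFit and eBayes on all 45037 probe sets, 2 residual and 2.74 prior degrees of freedom and a threshold of 0.05. Within-gene contrasts were fitted likewise. Scripts were tested on simulated data. An exact permutation test of 2 against 2 mice cannot go below 0.333. The labels describe separate mice, so errors measure how 2 mice of a genotype differed.

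The members, lists and alternatives were chosen with earlier results of these data known. The rule for named genes took all member probe sets, Bcas1, the 4 largest differences of each of the 2 myelin lists and the 5 genes most like the members. Alternatives changed the normalization (arrays centred on their median, or quantiles repeated), left out dim probe sets or 1 array, used a trended robust prior or the mouse number as a block, or took a gene by the mean or median of its probe sets.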

Additional observations from a re-analysis of the deposited data

How the results depend on the processing

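Of the 25 probe sets, 0 passed in limma under any alternative tried, and of the 16 contrasts between probe sets of a gene 0 passed. At an unadjusted p under 0.05, 1 of 25 member probe sets appeared with an intensity trend and robust prior and 1 of 25 with the replicate block, where 3.06% and 4.56% of all probe sets did. Beyond the members, the calls over all probe sets went from 2 to 1 with dim probe sets left out, to 10 with an intensity trend and robust prior, to 0 with the replicate block and to 0 without any 1 array. The calls over all contrasts went from 1 to 3 with the trend and robust prior, to 0 with the replicate block and to 0 without any 1 array. The causes were not tested. The labels do not say that a mouse number pairs animals. The difference between mice 1 and 2 correlated at 0.24 between genotypes across probe sets. The block cannot change a difference in this balanced design, so 20 of 25 member differences stayed above 0 with it.

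Differences of single member probe sets changed sign in 1 of 123 cases with all arrays used: Mbp 1436201_x_at was at -0.0025 with repeated quantile normalization. Many of these cases could not change sign. The trended robust prior, the block and leaving out dim probe sets keep each difference as it is in this balanced design. Median centring shifts all differences by the same amount. Outside these 123 cases, the Mbp difference taken by gene also changed sign. It was -0.055 by the brightest probe set and 0.020 by the median of its probe sets. With 1 array left out, 15 of 100 changed sign. The ranges were -0.12 to 0.010 for Mbp 1433532_a_at, -0.095 to 0.025 for 1419646_a_at, -0.010 to 0.050 for 1436201_x_at, -0.17 to 0.040 for 1451961_a_at, -0.14 to 0.015 for 1425264_s_at and -0.11 to 0.15 for 1425263_a_at. They were -0.010 to 0.13 for Mobp 1433785_at, -0.055 to 0.13 for Mobp 1450088_a_at, -0.14 to 0.17 for Mog, -0.16 to 0.22 for Cldn11, -0.040 to 0.21 for Cnp 1418980_a_at, -0.080 to 0.18 for Opalin 1435854_at and -0.030 to 0.34 for Ermn 1440902_at. The count of differences above 0 ran from 14 to 23, and the median from 0.010 to 0.075. Over all probe sets the share above 0 ran from 44.8% to 53.6% and the median from -0.015 to 0.015. The counts above 0 in the lists of other myelin proteins and regulators ran from 14 to 19 and from 8 to 10. With median-centred arrays the share of all probe sets above 0 was 52.9%, against 48.1%, while 20 of 25 members stayed above 0. Repeated quantile normalization left 6 of 25 with the knockouts higher without overlap, where 15.3% of all probe sets did so. Background correction was not varied, because it needs scanner files, which were not analysed here.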
